A study of Mus musculus with 10 samples.

Results

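REST binding in the mouse cortex was described here through the 300 strongest peaks of the 3xTg list, 5.91% of its 5077 peaks. The 300 peaks were chosen by fold enrichment, the signal at the summit over the local background: the 3xTg peaks were sorted from the highest value to the lowest after the 9 peaks on chromosome Y were left out, and the first 300 were kept. They were compared with the 3006 peaks of the WT list, from which 4 peaks on chromosome Y were left out. The chromatin came from bulk cortex of female WT and 3xTg mice aged 11 months, and was immunoprecipitated with an antibody to the C-terminal part of REST. Each genotype had 4 replicates, each a pool of 4 cortices, and 1 input library. The 3xTg line models Alzheimer's disease by combining a knock-in at PS1 with transgenes for mutant APP (APPSwe) and mutant tau (tauP301L), on a mixed 129Sv/Ev and C57BL/6J strain. WT mice carry none of these alleles. The cell types of bulk cortex cannot be told apart in these data, and no expression values were analysed here with which the tissue could be checked against its marker genes.

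REST, also called NRSF, is a zinc-finger repressor that holds neuronal genes silent outside neurons and is also present in mature neurons. It binds an element called RE1 and recruits the CoREST and Sin3 corepressor complexes, which carry histone deacetylases and a histone demethylase. Its known targets include ion channels, synaptic vesicle proteins, granins and neuronal transcription factors. RE1 is built from a left arm, CAGCACC, and a right arm, GGACAG, separated by 2 bases, and some REST sites carry the same arms farther apart.

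Fold enrichment of the 300 peaks ran from 23.5 to 69.0 with a median of 29.7, against 8.50 to 23.4 and a median of 10.5 in the other 4777 3xTg peaks. Because this value selected the peaks, it is a description and supports nothing further. The last 3 peaks kept lay nearest to Ank3 (23.6), Ppm1b (23.5) and Ift80 (23.5), and the first 3 left out lay nearest to Chdh (23.4), Slc39a3 (23.4) and Eif4g3 (23.4), so the threshold fell in a continuous run of values. The 300 peaks had a median width of 1468 bases, from 469 bases at the peak nearest to Galnt5 to 5805 bases at Npas4, and the other 3xTg peaks one of 911 bases. By count, chromosome 11 held the most of them, 30 of its 377 3xTg peaks. Chromosome 2 held 27 of 411 and chromosome 4 held 23 of 252, beside 5.91% over the whole 3xTg list. None lay on chromosome X, where 58 3xTg peaks were called (0%, Wilson interval up to 1.26%, beside 1.14% of all 3xTg peaks; difference from the other peaks -1.21 percentage points, Newcombe interval -1.57 to 0.0794). The lists combine the 4 replicates of a genotype and give no sequencing depth, so no peak value has a spread between replicates. All intervals below are 95% intervals that cover counting error over peaks alone.

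Nearly all of the strongest 3xTg peaks were also WT peaks. A WT peak overlapped 299 of the 300 by at least 1 base (99.7%, Wilson interval 98.1 to 99.9%), while 49.0% of all 3xTg peaks had one. The rule used the 3xTg values, so the difference from the whole list is a description. The WT peak was among the 300 strongest WT peaks for 244 of the 300 (81.3%, 76.5 to 85.3%), and these were likewise 81.3% of the 300 strongest WT peaks. The median WT rank was 152, with quartiles of 75.5 and 266. Across the 299 shared peaks, each rank coming from the 1 pooled list of its genotype, the ranks in both lists had a Spearman's rho of 0.82. In 252 of these peaks the summits of both lists lay within 50 bases of each other, and the median distance was 17 bases, against 36 bases over the other shared 3xTg peaks. Both values use the 3xTg rank that selected the peaks and are descriptions. Tle3 and Utp4 ranked 1 and 2 in both lists, and 6 peaks were among the first 10 of each.

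The fold enrichment was higher in 3xTg than in WT at all but 2 of the 299 shared peaks. Its ratio has the selecting value as numerator, which the rule itself pushes up, so it is a description. The lists were normalised separately and end at different values, 8.50 in 3xTg and 6.0 in WT, so values of both lists are not on 1 scale. Both ends lie above the limit named in the authors' methods, and whether a further filter per genotype shaped the lists, their overlap and their ranks is not known. The median ratio of 3xTg to WT fold enrichment was 1.78 (quartiles 1.56 and 2.05) over the 299 peaks and 1.69 over the other 2190 shared 3xTg peaks. The 5 lowest ratios belonged to Smim17 (0.954, 38.8 in 3xTg and 40.6 in WT), Cacng2 (0.979), the peak nearest to Mir6935 (1.00), Tle3 (1.01) and Tle6 (1.01). Of the 5 highest ratios 4 were at Cttnbp2nl, Rny1, Nbr1 and Fads1. Cttnbp2nl, which encodes a protein related to cortactin-binding protein, had a peak in its intron (chr3:105028247-105030537), with a wholly repeat-masked summit window, and values of 26.9 in 3xTg and 7.0 in WT, a ratio of 3.85. At Rny1 (chr6:47787382-47789322), the gene of the small cytoplasmic Y1 RNA, the values were 49.8 and 15.9, a ratio of 3.13. The ratio was 2.87 at Nbr1, an autophagy receptor, and 2.84 at Fads1, a fatty acid desaturase. In an intron of Camk4, 108934 bases from the nearest start site, that of Stard4, it was 3.05.

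The place of a peak differed between the orders at all but 3 of the 299 peaks, 178 standing higher in 3xTg and 118 lower. The rule holds the 3xTg rank at 300 or less while a WT rank could run to 3006, and the lists differ in length, so by construction higher places can outnumber and exceed lower ones. These places are therefore no measure of change. The WT place was furthest below the 3xTg place at Cttnbp2nl (WT rank 1768, 3xTg rank 197), Stard4 (966 and 229), Ank3 (901 and 298), the peak nearest to Gm45871 (838 and 294) and Pex14 (764 and 258). The summit windows at Cttnbp2nl and Gm45871 were tandem repeats and wholly repeat-masked. Ank3 encodes ankyrin-G of the axon initial segment, and Pex14 a peroxisomal import protein. The WT place stood furthest above the 3xTg place at Atp2b2 (97 and 287), a plasma membrane calcium pump, Daam1 (105 and 259), Ppp6c (107 and 245), Commd8 (150 and 284) and Acot12 (143 and 261), each the nearest gene. The Daam1 and Ppp6c start sites were 82120 and 580580 bases from the summits. The Commd8 peak lay in an intron of Gabrb1, 191500 bases from the Commd8 start site. The Acot12 peak lay in an intron of Ssbp2, 102871 bases from the Acot12 start site. A rank past 600 in WT was seen for 16 of the 299 peaks. The only 1 of the 300 with no WT peak ranked 246, with a fold enrichment of 25.0, and lay between genes on chromosome 2 (57629373 to 57629841), 368593 bases from the Galnt5 start site, which was the nearest, with all of its 200 summit bases repeat-masked.

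Nearest to the 20 highest peaks lay Tle3 (69.0), Utp4 (67.0), Tle1 (66.5), Smad2 (65.4), Tle2 (61.8), Opa1 (61.5), Igsf21 (60.6), Zbtb4 (59.0), Slc38a9 (59.0), Sowahb (58.2), Phf21b (57.8), Kcnk9 (56.7), Vstm2l (56.6), Npas4 (55.8), Kcnk1 (55.8), Mir598 (55.4), Kdm8 (55.1), AF357425 (54.7), Erich1 (54.6) and Iqsec3 (54.1), each value a fold enrichment in 3xTg. The first 3 peaks, in mm10, spanned chr9:61368416-61373553 upstream of Tle3, chr8:106913288-106915713 in an intron of Utp4 and chr4:72198824-72202256 over the Tle1 promoter, and the Npas4 peak chr19:4987727-4993531. An RE1 core lay at the summit of 8 of these 20 peaks, a tandem repeat at 8 others, and neither at Tle3, Tle1, Tle2 and Kcnk1. Smad2 is an effector of TGF-beta signalling, Opa1 a GTPase of mitochondrial fusion, Slc38a9 a lysosomal amino acid transporter and Utp4 a factor of ribosome assembly. Kcnk9 and Kcnk1 encode leak potassium channels, Npas4 a transcription factor induced by neuronal activity, and Iqsec3 an exchange factor of inhibitory synapses.

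The strongest peaks were richer in RE1 than the rest of the list. A core was counted where the 200 bases centred on the summit held CAGCACC, 2 bases and GGACAG on either strand with at most 2 mismatches over the 13 fixed letters. By this count 46 of the 300 peaks had one (15.3%, Wilson interval 11.7 to 19.8%), beside 4.27% of all 3xTg peaks and 171 of the other 4777 (3.58%, 3.09 to 4.14%). The difference was 11.8 percentage points (Newcombe interval 8.07 to 16.3). The shares depend on the search: they were 23.3% and 10.8% with up to 3 mismatches, and 25.3% and 8.33% over the whole peak. In windows of the same length 10 kb downstream of all 3xTg summits the share was 0.850% (43 of 5058). A core with no mismatch lay in 28 of the 300 (9.33%, 6.54 to 13.2%), in 62 of the other peaks (1.30%) and in 0 of the 5058 downstream windows. Within the 300 the share was 22.0% at ranks 1 to 50, 26.0% at ranks 51 to 100, 14.0% at ranks 101 to 200 and 8.0% at ranks 201 to 300. The median distance between the summit and the centre of the core was 20 bases. The left arm alone was present in 20% of the 300 windows, in 7.05% of those of the other peaks and in 4.69% of the downstream windows. For the right arm alone these shares were 26.7%, 15.1% and 14.7%. Both counts include windows with the whole core.

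Of the 28 exact cores 13 are printed here, picked after their values were seen, each with its nearest gene and its position.
Phf21b, intron, chr15:84829595-84829615, minus strand: gcCAGCACCacGGACAGcacc
Kcnk9, upstream, chr15:72568705-72568725, minus strand: ctCAGCACCgtGGACAGcgcc
Vstm2l, upstream, chr2:157913512-157913532, minus strand: ttCAGCACCgtGGACAGatcc
Npas4, intron, chr19:4989160-4989180, plus strand: ttCAGCACCgcGGACAGctcc
Mir598, intron of its host, chr14:63681683-63681703, plus strand: ggCAGCACCacGGACAGctcc
Erich1, intron, chr8:14072727-14072747, plus strand: gtCAGCACCaaGGACAGcacc
Smim17, upstream, chr7:6410274-6410294, plus strand: ttCAGCACCaaGGACAGcgtg
Chgb, intron, chr2:132781794-132781814, plus strand: ttCAGCACCccGGACAGctcc
Lhx3, upstream, chr2:26208272-26208292, minus strand: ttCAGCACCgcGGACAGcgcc
Nsf, intron, chr11:103920835-103920855, plus strand: gtCAGCACCatGGACAGtatc
Celf6, coding exon, chr9:59578435-59578455, plus strand: ttCAGCACCgcGGACAGcggc
Syt7, intron, chr19:10403281-10403301, plus strand: ttCAGCACCaaGGACAGggat
C1qa, upstream, chr4:136924723-136924743, plus strand: ccCAGCACCttGGACAGcgca
Coordinates are those of mm10, capitals mark both arms, and lower case shows the spacer, 2 bases before the core and 4 after it.
The spacer varied among these 13 sequences while both arms were fixed by the search. Further exact cores had as their nearest start site, in some cases far away, Engase (108186 bases, in an intron of Rbfox3), Gm30529 (69625 bases, in an intron of Myo18b), Lhx2 (66842 bases), Slc2a8 (36151 bases, in an intron of Garnl3), Swsap1, Xkr7, Lin28a, Golga7b, Vrk3, Tas1r3, Mir212, Rtbdn, Ogdhl and, for a second peak, Mir598. Lin28a is an RNA-binding protein of early development. Among peaks with 1 mismatch were those of Iqsec3, Igsf21, Vgf, Glra1, Scrt1, Rundc3a and Scamp5, and Cacng3 had 2.

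Arms placed farther apart were also more frequent among the 300. Windows without a core in which both arms stood 3 to 10 bases apart in the same orientation, with at most 1 mismatch in all, numbered 17 of the 300 (5.67%, Wilson interval 3.57 to 8.89%), beside 1.58% of all 3xTg peaks and 1.32% of the other 4777. The difference was 4.35 percentage points (Newcombe interval 2.22 to 7.58), and the downstream windows held 0.356%. All 17 had a spacing of 7 to 10 bases: 5 had 7, 4 had 8, 5 had 9 and 3 had 10. None had a spacing of 3 to 6. The other 4777 peaks held 63 windows with spaced arms, 9 of them at a spacing of 3 to 6. At spacings of 7, 8, 9 and 10 they held 7, 15, 24 and 8, so most of theirs lay there too. The 6 sequences below had no mismatch and were picked after their values were seen.
Unc13a, exon, spacing 8, chr8:71671727-71671753, plus strand: ttCAGCACCgggggcgcGGACAGcgcc
Actl6b, exon, spacing 9, chr5:137553564-137553591, minus strand: atCAGCACCgaggcggccGGACAGctcc
Disp2, exon, spacing 7, chr2:118779733-118779758, plus strand: ttCAGCACCagagcccGGACAGcggc
Yif1a, upstream, spacing 7, chr19:5087995-5088020, plus strand: ttCAGCACCagccgacGGACAGcacc
Trim67, exon, spacing 10, chr8:124793378-124793406, minus strand: ttCAGCACCaccagacggcGGACAGcgcc
Atp2b2, intron, spacing 10, chr6:113852551-113852579, minus strand: atCAGCACCtggggcttgaGGACAGctca
Capitals again mark the arms, in mm10. Unc13a encodes a priming factor of synaptic vesicles, and its peak (44, WT rank 72) had its summit 54 bases from the start site. Actl6b is the neuronal actin-like subunit of the BAF chromatin remodelling complex (27.4, WT rank 151). Fads1 and Rph3a, an effector of vesicle-bound Rab3, had arms with 1 mismatch and spacings of 8 and 7. The peaks nearest to Taf1b and Ppp6c, on chromosomes 12 and 2, both had a spacing of 9 and no mismatch. Their letters between and beside the arms were nearly identical, and 64.5% and 42% of their windows were repeat-masked. Whether both are copies of the same repeat was not tested, so they may not be independent sites.

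Tandem repeats marked many of the highest peaks. A window was counted as a tandem repeat when at least 80% of its bases were identical to the base a fixed period of 5 to 60 bases further on, a measure chosen after the highest peaks had been seen. Of the 300 windows 35 were repeats (11.7%, Wilson interval 8.51 to 15.8%), beside 3.09% of all 3xTg peaks and 122 of the other 4777 (2.55%, 2.14 to 3.04%). The difference was 9.11 percentage points (Newcombe interval 5.92 to 13.3). The downstream windows held 11 of 5058 (0.217%). Repeats made up 36.0% of ranks 1 to 50, 8.0% of ranks 51 to 100 and 7.0% of ranks 201 to 300. Their periods, as found by this search, ran from 6 to 59 bases. A period can span more than 1 copy of a shorter unit. No repeat window held an RE1 core or spaced arms, and 1 of the 35 lay within 1 kb of a start site. Most lay in introns, such as those of Utp4, Opa1, Zbtb4, Slc38a9, Ntm, Grip1, Celf1, Atg4c, Cntn5, Ep300, Psmf1, Abr and Grin2a.

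The 90 bases around 8 of these summits, picked after their values were seen, are printed to show the repeated units, with the length of 1 period from the left end in capitals.
Utp4, period 21, chr8:106914094-106914183: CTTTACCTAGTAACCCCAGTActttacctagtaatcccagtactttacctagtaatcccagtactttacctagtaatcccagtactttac
Opa1, period 30, chr16:29622242-29622331: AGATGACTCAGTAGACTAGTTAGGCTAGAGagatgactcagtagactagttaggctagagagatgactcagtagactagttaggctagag
Zbtb4, period 32, chr11:69772436-69772525: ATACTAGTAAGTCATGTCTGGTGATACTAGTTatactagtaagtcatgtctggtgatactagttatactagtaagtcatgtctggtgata
Slc38a9, period 19, chr13:112707744-112707833: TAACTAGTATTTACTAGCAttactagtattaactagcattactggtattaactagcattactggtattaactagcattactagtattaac
Sowahb, period 18, chr5:93054341-93054430: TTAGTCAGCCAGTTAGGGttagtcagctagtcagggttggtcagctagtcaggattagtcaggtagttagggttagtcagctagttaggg
Kdm8, period 59, chr7:125463646-125463735: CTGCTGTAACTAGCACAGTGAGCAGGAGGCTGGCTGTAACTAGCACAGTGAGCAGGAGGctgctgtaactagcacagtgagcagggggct
AF357425, period 19, chr12:109630574-109630663: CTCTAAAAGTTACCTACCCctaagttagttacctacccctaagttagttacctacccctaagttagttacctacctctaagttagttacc
Ntm, period 21, chr9:29958400-29958489: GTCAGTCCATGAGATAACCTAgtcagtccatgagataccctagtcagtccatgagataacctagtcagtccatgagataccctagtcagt
All are the plus strand of mm10. At Kdm8 the capitals hold a shorter unit more than once, so its period of 59 is longer than the repeated unit. At Opa1 the masked share was 97.0%, and at Utp4, Zbtb4, Slc38a9, Kdm8 and Ntm no base was masked. AF357425 is a small nucleolar RNA gene, and the summit next to it lay in an intron of the noncoding gene Rian. Ntm, the adhesion protein neurotrimin, had a fold enrichment of 52.6 and a WT rank of 34. The lists hold no input signal over these repeats, and its part in their height was not tested.

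Many of the repeat units, and windows below the repeat limit as well, shared the letters TAACTAG. Every 8-base word found in at least 15 of the 300 windows was ranked by its ratio to the downstream windows, counting a word together with its reverse complement. The 12 leading words were of 2 kinds: pieces of RE1, such as CGGACAGC (30 of the 300, 10%, against 0.118% downstream), and words with CTAG or AACTA, such as ACTAGTTA (29, 9.67%, against 0.276%). The 7 letters TAACTAG on either strand, chosen from this ranking, occurred in 65 of the 300 windows (21.7%, Wilson interval 17.4 to 26.7%), beside 12.7% of all 3xTg peaks and 12.2% of the other 4777. They occurred in 1.42% of the downstream windows (72 of 5058). None of these 65 windows held an RE1 core, and 18 of them were tandem repeats. At least 5 copies were present in 18 windows. The 90 bases around 2 of the densest windows that did not count as repeats are printed with each copy in capitals, in mm10.
Helz, intron, 16 copies in 200 bases, chr11:107558837-107558926: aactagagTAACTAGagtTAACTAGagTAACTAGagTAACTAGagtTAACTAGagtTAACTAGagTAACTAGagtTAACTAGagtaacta
Slc45a1, upstream, 9 copies in 200 bases, chr4:150684735-150684824: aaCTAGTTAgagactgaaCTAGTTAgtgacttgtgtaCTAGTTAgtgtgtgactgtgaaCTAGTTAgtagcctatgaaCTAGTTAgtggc
The Helz peak had a fold enrichment of 45.1 and ranked 42 in 3xTg and 65 in WT, and that of Slc45a1 ranked 147 and 184. Because the words were ranked on the same 300 windows, their share among the 300 is a description. The factor that these letters might bind was not tested.

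A further group of the 300 lay at or beside genes of small noncoding RNAs. A tRNA, snRNA or Y RNA gene of the RefSeq annotation lay within 200 bases of the summit of 27 peaks (9.0%, Wilson interval 6.26 to 12.8%), beside 1.91% of all 3xTg peaks and 1.47% of the other 4777. The difference was 7.53 percentage points (Newcombe interval 4.77 to 11.3). This interval counts the 27 peaks as independent, although 6 of them lay in a cluster of U1 genes on chromosome 12, so it may be too narrow. The summit itself was inside the gene in 7 of the 300 (2.33%). No share of the other peaks is given for this stricter count, so it has no comparison. These classes were chosen after the peaks had been seen. Genes of spliceosomal RNAs accounted for 14 of the 27, tRNA genes for 11 and Y RNA genes for 2. Both annotated Y RNA genes had a peak: Rny1 (49.8, WT rank 170) and Rny3 (33.0, WT rank 102), whose RNAs bind the Ro protein. No small RNA peak held an RE1 core or spaced arms.

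Among the spliceosomal RNA peaks 8 lay at U1 genes, 4 at U2 genes and 1 each at U5 and U11 genes. A row of 6 U1 peaks spanned 29780 bases of chromosome 12, from 54709584 to 54739363, and all 6 had Eapp as their nearest start site. Their fold enrichments were 48.0, 33.7, 30.6, 29.8, 28.3 and 23.9, at 3xTg ranks 35, 109, 135, 148, 172 and 286 and WT ranks 24, 62, 272, 100, 216 and 361. The other U1 peaks were at Rnu1a1 (35.4) and beside Tex14 (37.6) on chromosome 11. The 8 U1 genes, 6 on chromosome 12 and 2 on chromosome 11, had 2 distinct sequences of 164 bases, and reads from inside copies of the same sequence could not be told apart. Of the U2 peaks 3 were on chromosome 11, nearest to Rdm1 (27.4 and 25.1) and Rnu2-10 (24.7), and 1 on chromosome 1, nearest to D230017M19Rik (33.6). The U5 peak was the highest of the group (51.3, nearest start site Kif2c), and the U11 gene Rnu11 had 29.9. The 11 tRNA genes coded for 10 amino acids and included tRNA-Val on chromosome 19 (48.5, nearest to Olfr1423), tRNA-Arg beside Prmt5 (35.6) and tRNA-Arg and tRNA-Ala near Gpx5 on chromosome 13 (30.6 and 27.8). Over the 27 peaks the median ratio of 3xTg to WT fold enrichment was 1.97. By kind the median ratio was 1.69 at the U5 peak, 1.92 at U1, 1.97 at U11, 2.00 at tRNA, 2.40 at U2 and 2.42 at Y RNA genes, beside 1.78 over all 299 shared peaks.

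Of the 7 annotated Groucho corepressor genes 5 were nearest to a 3xTg peak of any height, and all 5 had a peak among the 300, beside 287 of 4008 over all genes (7.16%): Tle3 (69.0, rank 1), Tle1 (66.5, rank 3), Tle2 (61.8, rank 5), Tle4 (40.2, rank 63) and Tle6 (31.2, rank 126). Tle proteins are recruited by DNA-binding factors and repress transcription. In WT the same peaks ranked 1, 6, 13, 25 and 36, with fold enrichments of 68.6, 53.1, 46.5, 37.3 and 31.0. Each summit lay upstream of the start site, by 1777 bases at Tle3, 107 at Tle1, 4232 at Tle2, 213 at Tle4 and 170 at Tle6. None of these windows held an RE1 core, the best matches having 4 or 5 mismatches, and GC content ran from 59.0 to 77.0%. An E-box, CACGTG, was present at Tle3 and Tle4 in 1 copy and at Tle6 in 2, and at neither Tle1 nor Tle2. Over the 300 windows the E-box occurred in 4.33%, in 3.43% of the other peaks and in 2.27% of the downstream windows. The 200 bases around these 3 summits are given with the E-box in capitals.
Tle3, chr9:61370489-61370688: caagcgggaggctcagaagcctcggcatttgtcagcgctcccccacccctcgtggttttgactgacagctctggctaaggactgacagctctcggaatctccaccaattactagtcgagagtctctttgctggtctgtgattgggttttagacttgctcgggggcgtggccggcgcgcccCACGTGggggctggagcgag
Tle4, chr19:14598296-14598495: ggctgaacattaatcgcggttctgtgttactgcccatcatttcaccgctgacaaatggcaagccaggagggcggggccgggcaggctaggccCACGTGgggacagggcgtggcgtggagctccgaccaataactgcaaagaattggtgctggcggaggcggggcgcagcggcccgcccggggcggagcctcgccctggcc
Tle6, chr10:81600970-81601169: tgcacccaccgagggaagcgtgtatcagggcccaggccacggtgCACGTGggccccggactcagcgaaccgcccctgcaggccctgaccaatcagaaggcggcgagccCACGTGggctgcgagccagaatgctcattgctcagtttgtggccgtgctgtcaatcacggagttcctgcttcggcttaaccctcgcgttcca
These are the plus strand of mm10, and no annotated exon overlaps them.

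Ion channel and receptor genes were nearest to a small number of the 300. Over all genes, 287 of the 4008 nearest to any 3xTg peak were nearest to one of the 300 (7.16%). Potassium channels gave 3 of 31, Kcnk9 (56.7, WT rank 3), Kcnk1 (55.8, WT rank 29) and Kcnmb1 (28.0, WT rank 265), whose peak lay in an intron of Kcnip1. The peak of Kcnk9 lay 21009 bases upstream of its start site, and that of Kcnk1 in an intron, on a repeat of 21 bases below the limit used here (67.0%). The list of sodium and calcium channels, which includes the Cacng family, gave 2 of 12. Neither is a pore subunit: Cacng3 (45.8) and Cacng2 (45.2) encode auxiliary subunits of AMPA receptors, both with summits within 1 kb upstream of the start site. Cacng3 had a core with 2 mismatches, and Cacng2 a best match with 3. Glutamate receptors and scaffolds gave 2 of 14, Dlgap1 (28.1) and the NMDA receptor subunit Grin2a (25.9), both deep in introns. Receptors for GABA, glycine and acetylcholine gave 2 of 13, among them the glycine receptor Glra1 (36.4, 262 bases from the start site).

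Genes of secretion had peaks at promoters, in introns and between genes. Beside the 7.16% over all genes, vesicle release machinery gave 3 of 20, Unc13a, Rph3a (34.4, between genes) and the calcium sensor Syt7 (25.6, exact core in an intron). Granins and neuropeptides gave 2 of 11, Vgf (43.4, summit 6 bases from the start site) and chromogranin B, Chgb (36.1, 171 bases). Vgf ranked 46 in WT and Chgb 109. Nsf, the ATPase that recycles SNARE complexes, had an intron peak with an exact core (29.9).

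The microRNA list, which also holds host genes, gave 12 of 116 genes, beside 7.16% over all genes, among them Mir598 (55.4 and 29.2), Mir691 (44.2), Mir6935 (42.1) and Mir152 (39.2). Most were far away, 13963 bases or more for these. Mir212 was the closest, with its start site 65 bases from the summit (27.4, WT rank 251) and an exact core. The mature sequences of miR-212 in RefSeq are printed with their seeds in capitals.
miR-212-5p, chr11:75173403-75173425, plus strand: aCCUUGGCucuagacugcuuacu
miR-212-3p, chr11:75173443-75173464, plus strand: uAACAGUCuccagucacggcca
The seeds of both arms differ. Mir22hg, the host of miR-22 and 1 of the 12, had a summit 129 bases from its start site (24.4).

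Neural transcription factors gave 6 of 32 genes, beside 7.16% over all genes, among them Npas4, Lhx2 (31.2), Scrt1 (30), Lhx3 (27.5) and Nkx1-1 (24.4). Npas4 had the widest peak of the 300, 5805 bases, and ranked 14 in 3xTg and 5 in WT. The summit at Lhx3, a LIM homeobox factor of motor neurons and pituitary, lay 27 bases from the start site, and that at Scrt1, a neuronal repressor, 154 bases. RNA-binding and splicing regulators gave 4 of 16, Celf1 (43.8), Celf4 (36.1), Celf6 (26.8) and Srrm3 (24.1). Celf1 had a repeat with a period of 42 in an intron, whereas Celf4 and Celf6 had exact cores. Celf6 ranked 388 in WT and 206 in 3xTg, and its ratio of 2.28 was the highest of the 46 peaks with a core.

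The remaining lists gave at most 3 genes each, beside 7.16% over all genes. Cytoskeleton and transport genes gave 3 of 18: Kif2c (51.3, the U5 peak), the neurofilament gene Nefm (26.1, 95336 bases away) and Ank3 (23.6). Synaptic and neural adhesion gave 2 of 24, the atypical cadherin Celsr3 (52.1, coding exon) and Cntn5 (36.1, intron repeat of 23 bases). Glial and microglial markers gave 3 of 7, among them Mbp (36.5) and C1qa (25.9), with summits 2911 and 25856 bases from the start sites. Ribosomal proteins gave 1 of 13. REST and its corepressors gave 0 of 7, and axon guidance genes 0 of 13. These counts use the nearest start site and not the gene that holds the summit. The peak counted for Mir691 (44.2), 167497 bases from that start site, lay in an intron of the axon guidance receptor gene Robo2. The share for any single list rests on few genes, and no list was tested.

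By position no difference between the 300 and the rest of the 3xTg list was resolved. A start site was found at most 1 kb from the summit of 95 peaks (31.7%, Wilson interval 26.7 to 37.1%), beside 30.6% of all 3xTg peaks, and the difference from the other peaks was 1.08 percentage points (Newcombe interval -4.09 to 6.70). Gene bodies held 37.3% of the 300 and 43.0% of the others, a difference of -5.64 points (-11.1 to 0.129). Intergenic DNA held 31.0% and 26.4%, a difference of 4.56 points (-0.564 to 10.1). Both intervals included 0 but are wide, so they do not show that the shares are alike. Of the 95 promoter peaks 17 had a core, 10 spaced arms and 10 a small RNA gene, and 47 had none of the sequence features above, among them Cacng2, Gadd45b (45), Midn (39.2), Hmgb2 (35.8), Sesn3 (33.8), Gnai2 (30.1), Hdac4 (29.5) and Mat2a (29.2). These 8 genes were chosen after their values were seen. Gadd45b encodes a stress-response protein, Hdac4 a class II histone deacetylase, and Mat2a an S-adenosylmethionine synthetase. In all, 171 of the 300 (57.0%) carried a core, spaced arms, a repeat, TAACTAG or a small RNA gene, against 20.5% of the other peaks. Since the repeat, TAACTAG and small RNA features were chosen on these 300 peaks, part of that contrast follows from the choice.

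Base composition differed little. Median GC content of the 300 windows was 47.8%, against 47.0% in the other peaks, and the CpG ratio, observed over expected, was 0.354 against 0.314. The GC box GGGCGG occurred in 19.3% of the 300, 16.7% of the others and 2.61% of the downstream windows, and CCAAT in 28.0%, 28.0% and 26.7%. The cyclic AMP element TGACGTCA occurred in 1.33%, 0.754% and 0.277%, and the AP-1 site TGANTCA in 11.0%, 12.1% and 6.58%. The ETS letters CCGGAAG occurred in 3.00%, 5.30% and 0.929%. All were read on both strands, and for these motifs and the E-box every interval of the difference between the 300 and the other peaks included 0.

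The 300 strongest peaks lay nearest to 287 genes, and 9 genes were nearest to more than 1 of them. Besides Eapp with 6 peaks these were Abi1, Gpx5, Map4k4, Mir3961, Mir598, Mir8117, Rdm1 and Slc16a10 with 2 each. Map4k4, a kinase of stress signalling, had an intron peak 2181 bases from its start site (41.4) and another 76761 bases away (32.1). Slc16a10, an aromatic amino acid transporter, had peaks of 37.6 and 26.2, and Abi1, a regulator of the actin network, peaks of 26.8 and 26.4. The peaks nearest to Mir8117 lay next to each other on chromosome 5, from 50204061 to 50205371 and from 50206049 to 50207267. These peaks share a nearest start site, and their dependence was not measured.

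The groups were also set side by side in the WT order, with no test of a difference. Peaks with an RE1 core had a median WT rank of 75 and a median 3xTg rank of 93, and a median ratio of 1.51 (quartiles 1.27 and 1.67). The 253 shared peaks without a core had a median WT rank of 172, a median 3xTg rank of 160 and a median ratio of 1.85 (1.63 and 2.08). The median WT rank was 71 for repeats, 97 for spaced arms, 152 for TAACTAG and 189 for small RNA genes. Peaks with spaced arms had a median ratio of 1.62, repeats of 1.69, TAACTAG windows of 1.89, small RNA genes of 1.97 and the 5 Tle genes of 1.08. Promoter peaks had 1.79, gene body peaks 1.85 and intergenic peaks 1.72. Since the rule picked peaks on their 3xTg value, these ratios are a description and were not tested. In the 300 strongest WT peaks, chosen by the same rule in the other list, a core was present in 17.0%, a repeat in 11.3%, TAACTAG in 17.7% and a small RNA gene in 7.0%.

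Several limits apply. The lists combine the replicates of each genotype, so nothing here measures variation between animals, and read depth is not given in them. The lowest value kept was 8.50 in 3xTg and 6.0 in WT for fold enrichment, and 29.0 and 13.3 for -log10 q. Repeats and copied RNA genes can gather reads from several places, and input coverage over them was not analysed. The nearest start site need not be the regulated gene. Motif matches describe letters, and binding to them was not tested. Comparisons of the 300 with the other 3xTg peaks describe a selection made on the same values.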

How the data were processed

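REST chromatin immunoprecipitation was sequenced from bulk cortex of WT and 3xTg mice, with 4 replicates and 1 input library per genotype. The submitters' processing notes name STAR 2.7.0a, BWA, Picard, DiffBind and ChIPseeker on mm10, and the authors called peaks with MACS, filtered them on q-value and fold enrichment and removed blacklisted regions. The authors' methods name STAR as the only aligner, and which aligner made the pooled lists is not known. The 2 deposited peak lists, 1 per genotype, give each peak's fold enrichment (a ratio), computed by the authors' peak caller. They also give the deposited -log10 q-value and the summit as an offset in bases from the peak start. The lists give no read depth, and its effect on precision was not computed.

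Peaks on chromosome Y were left out. The 300 3xTg peaks with the highest fold enrichment were taken, ties ordered by chromosome and start, and matched to the strongest WT peak overlapping by at least 1 base. Peaks were assigned to the nearest start site of curated RefSeq transcripts (GRCm38.p6), and 1 kb defined a promoter. Letters were searched on both strands of the 200 bases around each summit and in control windows 10 kb downstream. Shares have 95% Wilson intervals and differences 95% Newcombe intervals, and no test was run. These peaks and the 16 gene lists were chosen with earlier results from these data known.

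Genes were named by a rule: the 20 highest peaks, up to 4 per gene list, peaks with no WT peak, the 5 lowest and highest ratios, the 5 largest differences of rank in each direction, 3 on each side of the threshold, exact RE1 cores, the widest arm spacings, and genes nearest to several peaks. Other genes were named after their values were seen. The tandem repeat, TAACTAG and small RNA measures were likewise chosen after the data had been seen. Alternatives changed the overlap, WT threshold, ranking value, number of peaks, mismatches, window, promoter distance and transcripts, repeat percentage and distance to small RNA genes. Sequences were read with samtools 1.23.1 and pysam 0.24.0, intervals and correlations computed with statsmodels 0.14.6 and scipy 1.17.1, and tables handled with pandas 2.3.3 and numpy 2.4.6 under Python 3.11.15. The programs were tested on simulated data.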

Additional observations from a re-analysis of the deposited data

How the results depend on the processing

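Of 36 alternatives over 8 results, 25 gave values inside the 95% interval of the reported value and 11 gave values outside it. The share of the 300 peaks with a WT peak was 99.7% and became 77% when the overlap had to cover at least 50% of both peaks, 94.3% with WT peaks of fold enrichment over 10, and 100% in the first 150 peaks. The RE1 share was 15.3% and became 23.3% with up to 3 mismatches and 25.3% over the whole peak, 2 searches that admit more matches by construction, and 21.3% in the first 150 and 10.8% in the first 600 peaks. Its difference from the other 3xTg peaks had an interval above 0 in all 5 search settings. The promoter share was 31.7% and became 41.3% within 5 kb of a start site, a wider limit. The alternatives for repeats, TAACTAG and small RNA genes were chosen after seeing the data. The repeat share was 11.7% and became 8% when at least 90% of bases had to repeat, and 16.7% in the first 150 peaks. The small RNA share was 9% and became 2.33% when the summit had to lie inside the gene. For the WT overlap and for the changes with the number of peaks the cause was not tested. Choosing 300 peaks by -log10 q instead of fold enrichment kept 258 of them, and the shares for WT overlap, RE1, promoters, repeats, small RNA genes and TAACTAG stayed inside their intervals. So did the share among the strongest WT peaks with both lists ranked by -log10 q, and the median WT rank of the same 299 peaks with WT ranked that way (167). No paired analysis was possible because each list pools the replicates of a genotype and holds no value per replicate, and leaving out a replicate was not possible for the same reason. The lists give no depth, and its limits on these results were not computed.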
